A study of Mus musculus with 6 samples.

Results

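Among 26200 promoter sequences on a chromatin immunoprecipitation microarray, 1356 (5.18%) had a ChIP-to-input ratio at or below that of the array's median promoter on all 6 arrays. These low promoters were chosen by that reading alone. Each array's log2 ratios were set to a median of 0, and a sequence was a member if its value was 0 or less on every array. A further 75 of 26275 listed sequences had no value. The low ratios are therefore what chose the members and are given below as a description, with no test.

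The cells were C57BL/6J mouse keratinocytes, the cells that build the epidermis, held for 4 days in high-calcium medium after reaching confluence, which starts terminal differentiation. Proteins were crosslinked to DNA with 2 mM disuccinimidyl glutarate and then 1% formaldehyde, and the chromatin was sheared to 500 bp. There were 3 arrays with a Plakoglobin antibody and 3 with a β-catenin antibody, numbered 1 to 3 within each, all from cells of the same strain and treatment. Input DNA was the other channel of every array, and values of an antibody's arrays are given in the order of their numbers. The labels do not say whether arrays came from separate cultures, so spreads between arrays may be partly technical. No array with a mock antibody was analysed here, and no RNA was measured, so the cell type could not be checked against the expression of its markers.

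Plakoglobin, also called γ-catenin, and β-catenin are related armadillo-repeat proteins that link cadherins to the cytoskeleton at cell junctions. Neither binds DNA itself. In the nucleus β-catenin joins TCF/LEF factors at Wnt target genes, and Plakoglobin can also bind these factors. Mammalian promoters fall broadly into CpG-rich ones, typical of genes used in most cells, and CpG-poor ones, typical of genes used in few tissues, such as the odorant receptors of the nose. A ChIP ratio below that of the median promoter means less ChIP DNA relative to input than at the middle promoter of the same array.

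Promoter windows of 6 members are printed to show the range of sequence among the low promoters, with every CpG in capitals. They are RefSeq sequences of GRCm38.p6, written 5′ to 3′ on the gene's strand, from 250 bases before to 50 after the annotated start. Asic5 (chr3:81996672-81996971, plus strand), Lce1c (chr3:92678997-92679296, plus strand) and Olfr429 (chr1:174088788-174089087, plus strand) have 2, 4 and 1 CpGs. H2ac10 (chr13:23533625-23533924, plus strand) has 9, Clp1 (chr2:84727238-84727537, minus strand) 26 and Pdzrn3 (chr6:101377848-101378147, minus strand) 32.
Asic5: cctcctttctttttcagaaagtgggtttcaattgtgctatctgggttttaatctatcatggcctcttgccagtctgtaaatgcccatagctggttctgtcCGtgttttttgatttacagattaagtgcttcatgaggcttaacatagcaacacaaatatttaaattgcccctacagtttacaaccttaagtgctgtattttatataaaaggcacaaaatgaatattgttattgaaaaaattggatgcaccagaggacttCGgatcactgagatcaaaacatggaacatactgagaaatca
Lce1c: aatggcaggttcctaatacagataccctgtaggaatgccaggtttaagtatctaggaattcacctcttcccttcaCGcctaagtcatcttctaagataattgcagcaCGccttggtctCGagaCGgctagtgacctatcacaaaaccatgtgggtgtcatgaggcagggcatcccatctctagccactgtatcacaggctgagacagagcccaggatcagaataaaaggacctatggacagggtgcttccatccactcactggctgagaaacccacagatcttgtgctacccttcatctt
Olfr429: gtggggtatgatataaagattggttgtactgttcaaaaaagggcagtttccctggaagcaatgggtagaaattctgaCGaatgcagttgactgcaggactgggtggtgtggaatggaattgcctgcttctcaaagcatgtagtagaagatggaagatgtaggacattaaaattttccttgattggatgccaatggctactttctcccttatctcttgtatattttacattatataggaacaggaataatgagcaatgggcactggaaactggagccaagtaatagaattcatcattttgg
H2ac10: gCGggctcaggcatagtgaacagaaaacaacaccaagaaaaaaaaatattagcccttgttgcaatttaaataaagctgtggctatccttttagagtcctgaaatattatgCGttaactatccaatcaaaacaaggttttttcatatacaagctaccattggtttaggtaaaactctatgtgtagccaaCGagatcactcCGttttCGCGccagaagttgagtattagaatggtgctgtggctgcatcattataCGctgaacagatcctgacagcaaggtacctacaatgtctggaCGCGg
Clp1: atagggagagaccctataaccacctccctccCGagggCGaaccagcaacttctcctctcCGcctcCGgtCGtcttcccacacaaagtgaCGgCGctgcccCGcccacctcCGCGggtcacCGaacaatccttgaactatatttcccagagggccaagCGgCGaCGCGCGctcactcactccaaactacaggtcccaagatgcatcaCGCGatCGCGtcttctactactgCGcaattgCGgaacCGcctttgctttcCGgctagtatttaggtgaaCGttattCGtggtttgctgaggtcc
Pdzrn3: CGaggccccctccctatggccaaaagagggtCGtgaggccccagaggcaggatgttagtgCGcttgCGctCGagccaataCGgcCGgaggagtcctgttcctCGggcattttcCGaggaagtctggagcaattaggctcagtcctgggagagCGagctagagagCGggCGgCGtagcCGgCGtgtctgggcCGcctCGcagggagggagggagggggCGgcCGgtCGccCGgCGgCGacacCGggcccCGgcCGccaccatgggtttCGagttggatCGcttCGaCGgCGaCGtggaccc

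The members' median ratio lay near or below the lower quartile of all promoters on each array, though small in log2 units. Their median log2 ratio was -0.23, -0.30 and -0.23 on the 3 Plakoglobin arrays and -0.12, -0.35 and -0.21 on the 3 β-catenin arrays, where all promoters have 0 by construction. In log2 units the number 2 arrays gave the lowest member medians of each antibody, and on β-catenin array 1 the members sat closest to 0. The arrays also differed in spread. The quartiles of all promoters were -0.32 and 0.41 on Plakoglobin array 2 and -0.35 and 0.36 on β-catenin array 2. On β-catenin array 1 they were -0.09 and 0.08. Values here and below are not scaled for this, so which array was lowest at a promoter depends partly on it. Averaged over the 6 arrays, the members had a median of -0.28, against 0.06 for all promoters. The highest of a member's 6 values had a median of -0.05, so most members were close to the threshold on at least 1 array. At or below -0.1 on every array were 362 members (26.7%), at or below -0.2 were 93, and at or below -0.5 were 3.

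**Figure D1:**
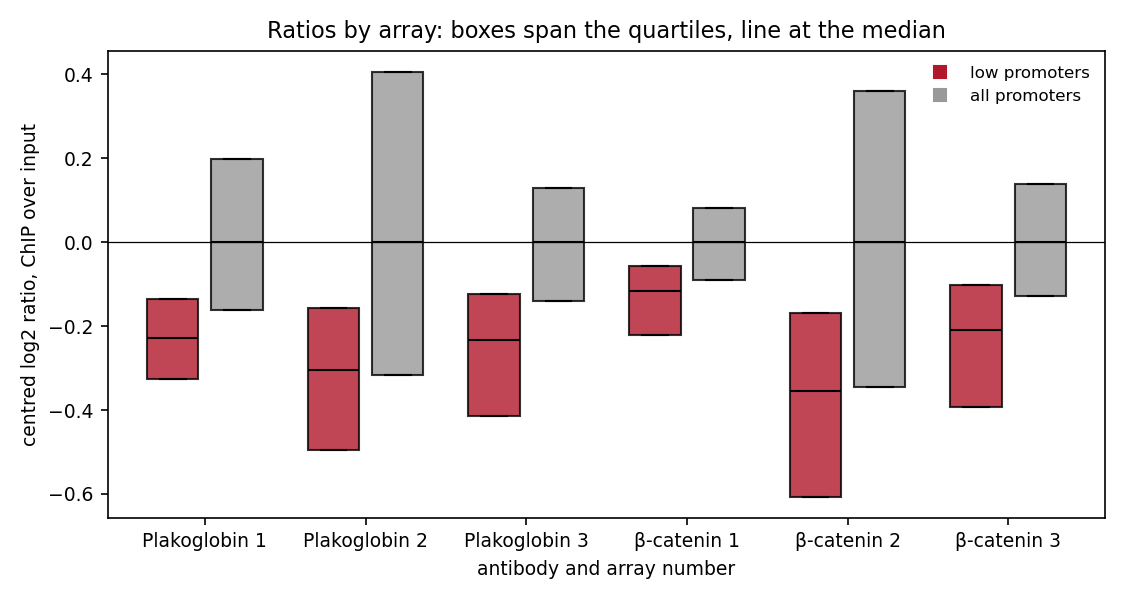
Centred log2 ratio of ChIP over input on each of the 6 arrays (horizontal axis), with boxes from the lower to the upper quartile and a line at the median, for the 1356 low promoters and for all 26200 promoters. The members' medians run from -0.12 on β-catenin array 1 to -0.35 on β-catenin array 2, while all promoters have 0.

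Before centring, the members stood at about 0 of the deposited ratio. Their medians were 0.001, 0.14 and -0.04 on the 3 Plakoglobin arrays and 0.03, 0.09 and -0.02 on the 3 β-catenin arrays. All promoters had medians of 0.23, 0.45 and 0.19 with Plakoglobin, against 0.15, 0.45 and 0.18 with β-catenin. Only the number 3 arrays had less than an equal split of members above 0 in the deposited scale, with 42.3% for Plakoglobin and 43.8% for β-catenin. Without centring, 37 sequences were at or below 0 on all 6 arrays. What that 0 stands for depends on a normalization which was not given in the sources used here.

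Around the threshold the members and their neighbours hardly differed. At the threshold itself, 17 members had a highest value of exactly 0, 10 of them with a gene name, and 15 sequences just outside had 0.001. One of the members with 0 was the promoter of Pkd2l1, a polycystin-family ion channel, with -0.13, -0.94 and -0.14 on the 3 Plakoglobin arrays and 0, -0.79 and -0.01 on the 3 β-catenin arrays. One of the sequences just outside was Ppp1r42, with -0.11, -1.32 and 0.001 on the Plakoglobin arrays and -0.16, -1.09 and -0.04 on the β-catenin arrays. Both were lowest on the number 2 arrays, and a difference of 0.001 on 1 array separated them.

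Promoters low on the other arrays were only in part low on an array left out, least on the number 2 arrays once both arrays of a number were left out. Those low on 5 arrays and also on the array left out are the 1356 members themselves. The shares therefore describe the values that the rule used and are no test. Of the 1832 to 2193 promoters at or below 0 on 5 arrays, between 61.8% (Plakoglobin array 2) and 74.0% (Plakoglobin array 1) were also at or below 0 on the array left out, where about 50% of all promoters are. Among accessions with a single sequence on the array these shares were 62.0% to 67.7%, against 45.5% to 49.5% of all such sequences. In each case the array of the same number with the other antibody was among the 5, and over all promoters same-number arrays had Spearman correlations of 0.35 to 0.41, against -0.01 to 0.29 for other pairs. With both arrays of a number left out, an alternative chosen after seeing the data, the share at or below 0 was 52.6% on Plakoglobin array 2 and 56.5% on β-catenin array 2, and 60.4% to 68.7% on the other 4 arrays. Among single-sequence accessions it was then 51.3% to 61.4%, lowest on Plakoglobin array 2, where 49.5% of all such sequences were at or below 0.

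The 10 named promoters that were low on every array belong to genes of unrelated kinds, several of them restricted to a tissue. Dppa5a encodes an RNA-binding protein of pluripotent cells. Its accession has 2 sequences on the array. The 1 chosen here had -0.51, -1.16 and -1.30 on the 3 Plakoglobin arrays and -0.84, -1.54 and -0.96 on the 3 β-catenin arrays. Every array stood at least 0.5 below the median promoter, and the antibodies overlapped. Trhr, the receptor for thyrotropin-releasing hormone, had -0.45, -0.68 and -0.82 with Plakoglobin, against -0.52, -0.65 and -0.45 with β-catenin, again with overlap. Asic5, a channel of the acid-sensing family whose CpG-poor window is printed above, had -0.67, -0.45 and -1.64 with Plakoglobin, against -0.58, -0.44 and -1.45 with β-catenin. Here the number 3 arrays were lowest for both antibodies.

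Tmc2, a mechanotransduction channel of inner-ear hair cells, had -0.46, -1.35 and -1.51 with Plakoglobin, against -0.41, -1.08 and -1.53 with β-catenin, with the number 1 arrays nearest to 0. Tph1, the first enzyme of serotonin synthesis outside the brain, had -0.44, -0.42 and -2.31 with Plakoglobin, against -0.38, -0.44 and -2.24 with β-catenin. Apart from the number 3 arrays its values were within 0.1 of each other. Pdzrn3, a ubiquitin ligase with a CpG-rich window, was the steadiest, at -0.37, -0.55 and -0.42 with Plakoglobin, against -0.36, -0.47 and -0.39 with β-catenin, and no array stood apart.

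Clp1, an RNA kinase of tRNA splicing and mRNA 3′ end formation, had -0.35, -0.66 and -1.63 with Plakoglobin, against -0.42, -0.59 and -1.49 with β-catenin. Cpsf4, a subunit of the factor that cleaves mRNA ends for polyadenylation, had -0.79, -0.68 and -0.82 with Plakoglobin, against -1.20, -0.34 and -0.77 with β-catenin. Lce1c, a late cornified envelope protein of the outer epidermis, had -0.34, -0.30 and -0.80 with Plakoglobin, against -0.38, -0.39 and -0.95 with β-catenin. Ier2, an immediate early gene, had -0.28, -0.41 and -0.95 with Plakoglobin, against -0.48, -0.69 and -1.52 with β-catenin. The groups overlapped in every one of these 10, and the number 3 array was the lowest of both antibodies at 6 of them: Asic5, Tmc2, Tph1, Clp1, Lce1c and Ier2. The sequence with the lowest highest value of all members, AK015769, has no gene name here and lay at or below -0.68 on every array.

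**Figure D2:**
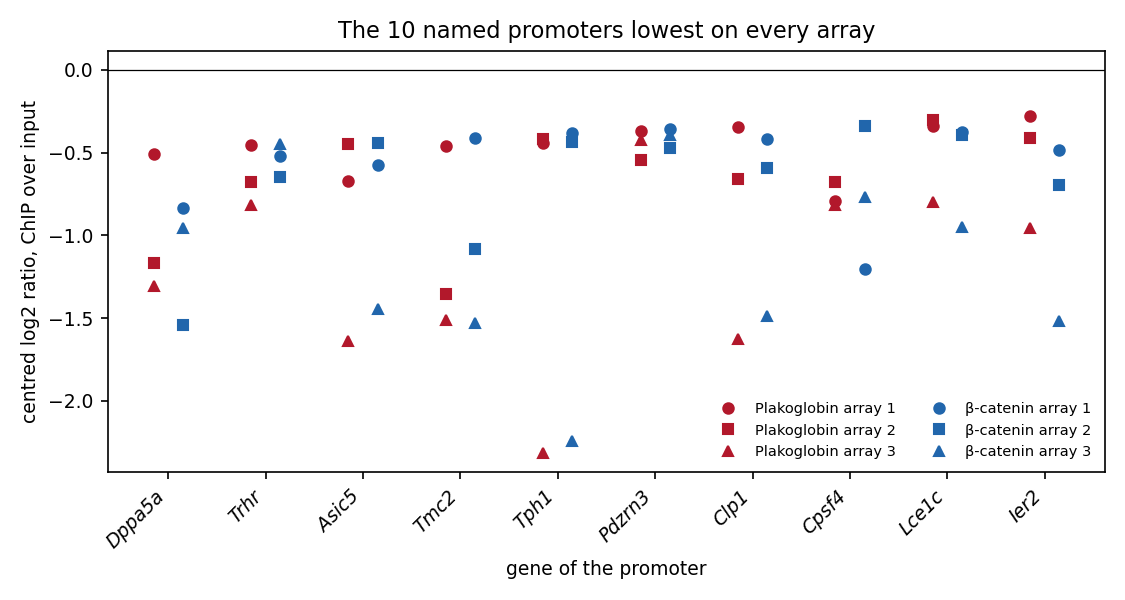
Centred log2 ratio (vertical axis) on each of the 6 arrays for the 10 named promoters with the lowest highest value (horizontal axis), Plakoglobin in red to the left and β-catenin in blue to the right, with a marker shape for each array number. All values lie below 0, and the triangles of the number 3 arrays are far below the rest at Tph1, Clp1 and Asic5.

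Promoters with the lowest means over 6 arrays were of another sort, because 2 arrays decided them. Tnks, which encodes tankyrase, a poly-ADP-ribose polymerase that controls the stability of Axin, had -0.28, -0.34 and -4.50 on the 3 Plakoglobin arrays and -0.09, -0.75 and -4.34 on the 3 β-catenin arrays. Prl7c1, a placental member of the prolactin family, had -0.24, -0.65 and -3.92 with Plakoglobin, against -0.17, -0.57 and -3.92 with β-catenin. Dlc1, a GTPase-activating protein, had -0.22, -0.48 and -3.86 with Plakoglobin, against -0.06, -0.52 and -3.57 with β-catenin. In all of them only the number 3 arrays were below -1. The other named promoters of the lowest 10 by mean were Ttc41, Mb21d2, Dhrs7b, the kinetochore gene Zw10, 4930548H24Rik, the oocyte gene Omt2b and the actin-binding gene Avil, with means over 6 arrays from -1.21 to -1.07. Each of these sequences was below -1.8 on both number 3 arrays. Omt2b has 2 sequences on the array, and the other, also a member, had a mean of -0.79.

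In all, 98 members were below -1 on both number 3 arrays, and 8 of these were below -1 on any other array. Their medians were -0.24, -0.33 and -1.80 on the 3 Plakoglobin arrays and -0.14, -0.38 and -1.58 on the 3 β-catenin arrays. Of the members below -1 on Plakoglobin array 3, 89.1% were so on β-catenin array 3, and 96.1% the other way round. Over all promoters these shares were 78.5% and 83.7%, so most of this agreement was not particular to the members. Over the members, the Spearman correlation between Plakoglobin and β-catenin arrays was 0.76 for number 3, 0.39 for number 1 and 0.40 for number 2, and from -0.13 to 0.31 between arrays of the same antibody. These correlations are over 1356 sequences that share arrays and are cut off at 0. What arrays of the same number share is not stated in the labels, and its part in these values was not tested.

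**Figure D3:**
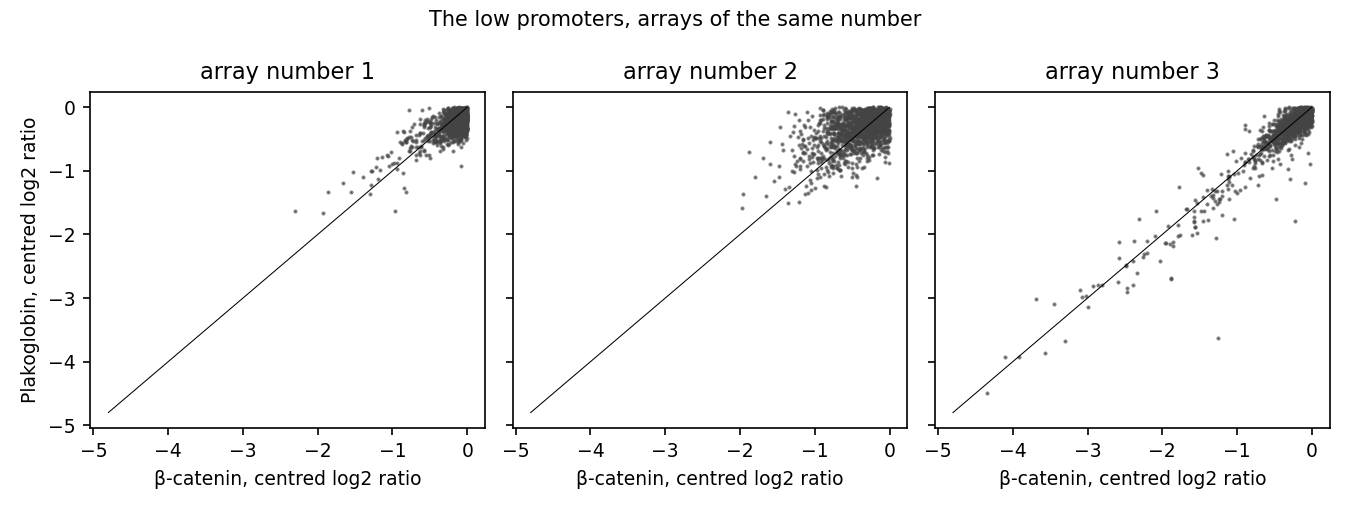
Plakoglobin (vertical axis) against β-catenin (horizontal axis) centred log2 ratios of the 1356 low promoters, with 1 panel for each array number and a line of equal values. In the panel of number 3 the points run along the line down to -4.50 and -4.34 at Tnks, while the lowest value of a member on the number 1 and number 2 arrays is -2.30.

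No low promoter was called different between the antibodies. In limma's fit across all 26200 promoters, 0 (0%) were called at a Benjamini-Hochberg adjusted p under 0.05 and 0 members were. At an unadjusted p under 0.05 there were 191 promoters (0.729%, of which higher with Plakoglobin 0.569% of all promoters and lower 0.16%) and 0 members. With the array number as a block, 2 members were higher with Plakoglobin (0.147%, against 0.71% of all promoters) and 7 lower (0.516%, against 0.462%) at an unadjusted p under 0.05. The median difference, Plakoglobin minus β-catenin, was -0.02 for members and 0.01 for all promoters, and the Plakoglobin mean was the lower one at 774 members (57.1%) and at 48.3% of all promoters. All 3 Plakoglobin arrays lay below all 3 β-catenin arrays at 40 members (2.95%, against 2.57% of all promoters). They lay above at 11 (0.811%, against 2.57%). Since members are capped at 0 with both antibodies, their difference has less room than that of other promoters.

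The 3 members in each direction with the lowest p for this difference in the fit without the block had adjusted p-values of 1.00. Clrn3, of the clarin family, had -0.46, -0.63 and -0.44 with Plakoglobin, against -0.03, -0.26 and -0.12 with β-catenin, a difference of -0.37 (SE 0.17, adjusted p = 1.00 in limma). Each Plakoglobin array was below each β-catenin array there. Z30940, listed in the peak files under a histone H2A name, had -0.41, -0.52 and -0.23 with Plakoglobin, against -0.01, -0.09 and -0.001 with β-catenin, a difference of -0.35 (SE 0.16, adjusted p = 1.00 in limma). In the other direction BC050809 had -0.18, -0.06 and -0.03 with Plakoglobin, against -0.21, -0.80 and -0.24 with β-catenin, a difference of 0.33 (SE 0.20, adjusted p = 1.00 in limma). The others of these 6 were the unnamed AK080586 and 1 sequence each of the repeated accessions U16671 and AK045941.

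Against the median promoter, each antibody's fit called 0 of 26200 (0%) at an adjusted p under 0.05. At an unadjusted p under 0.05, 328 members were below with Plakoglobin (2.14% of all promoters were) and 257 with β-catenin (1.50% of all promoters were). With the array number as a block, 936 members were below with Plakoglobin (10.8% of all promoters were) and 858 with β-catenin (9.21% of all promoters were). The rule that chose the members used these same values, so nothing is read from the counts.

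Much of the group came from sequences that share an accession. Of the members, 529 belonged to accessions with several sequences on the array, which hold 4281 (16.3%) of all sequences, and 12.4% of those sequences were members. The 4 accessions with most sequences, AK045941, U16672, U16670 and U16671, hold 427 members (31.5%) and 10.0% of all sequences. The most repeated one, AK045941, has 1262 sequences, of which 194 (15.4%) were members, and its median was -0.21, -0.09 and -0.23 on the 3 Plakoglobin arrays and -0.05, -0.18 and -0.20 on the 3 β-catenin arrays. The others had 17.1%, 16.3% and 19.4% of their sequences among the members, and all 4 had medians below 0 on all 6 arrays. No peak list names any of them. The files do not annotate these 4 accessions, so no gene or function is given. The array sequences themselves were not used here, so whether copies share probes could not be read.

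Accessions named in the files as gag, a retroviral gene name, had 6 of 67 and 4 of 26 sequences among the members. The accession named lpr had 6 of 30. Of the 12 accessions with at least 20 sequences, 11 had members. The other was the accession named Sly, a multi-copy Y-linked gene of the testis, which had 27 sequences and 0 members, with medians of -0.16, 1.00 and 0.08 with Plakoglobin, against -0.35, 0.02 and 0.17 with β-catenin. Sequences of 1 accession are not independent of each other. Among the 21919 accessions with a single sequence, 827 (3.77%) were members.

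Gene names were available for 590 members, which stand for 582 genes, and for 16455 sequences in all, so 3.59% of named promoters were members. The gene lists below are read against that share. Counts for a list are given with no test, since the lists were drawn up with results of these data known.

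Housekeeping genes, used in nearly all cells, gave few of the low promoters. Of 566 promoters of 13 housekeeping lists, 8 (1.41%) were members. No member came from the 66 promoters of cytosolic ribosomal proteins, the 67 of mitochondrial ribosomal proteins, the 56 of translation factors or the 33 of tRNA synthetases. The 23 of RNA polymerase subunits, the 24 of commonly used reference genes and the 19 of chaperonins and heat shock proteins also gave none. The upper 95% Wilson bounds of these lists were 5.42% to 16.8% (counting error only), all above 3.59%. The DNA replication list had 3 of 39 (7.69%, 95% Wilson interval 2.65 to 20.3, counting error only), an interval that spans the 3.59% of all named promoters. These were Rfc2, of the clamp loader, with a mean of -0.46 ± 0.49 with Plakoglobin, against -0.49 ± 0.48 with β-catenin (SD, n = 3 arrays each), Gins3, of the replicative helicase, with -0.29 ± 0.23 and -0.18 ± 0.12, and Orc5, of the origin recognition complex, with -0.09 ± 0.07 and -0.01 ± 0.02. Orc5 lay at the threshold, with 0 on β-catenin array 1, and Rfc2 was near 0 on both number 3 arrays. The accession of Rfc2 has 2 sequences on the array, of which 1 is given here.

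The other 5 housekeeping members came 1 to a list. Uqcrb, a subunit of respiratory complex III, was the steadiest, with -0.19, -0.20 and -0.26 on the 3 Plakoglobin arrays and -0.11, -0.26 and -0.23 on the 3 β-catenin arrays. U2af2, the splicing factor that reads the polypyrimidine tract, had -0.07, -1.23 and -0.11 with Plakoglobin, against -0.01, -1.12 and -0.06 with β-catenin. Only its number 2 arrays were clearly low. On Plakoglobin array 2, where its ratio was -1.23, a peak was also listed for it, at 505 from a start on chromosome 13. Whether that place is the promoter of U2af2 was not checked. Psme3, a proteasome activator, averaged -0.26 ± 0.28 with Plakoglobin, against -0.07 ± 0.05 with β-catenin, and Tubb4b, a β-tubulin, -0.16 ± 0.09 and -0.13 ± 0.04 (SD, n = 3 arrays each). H2ac10, a replication-dependent histone H2A gene, had -0.12, -0.27 and -0.41 with Plakoglobin, against -0.20, -0.64 and -0.25 with β-catenin. It was the 1 member among the 64 histone promoters with a gene name here. Z30940, the member listed in the peak files under a histone H2A name, has 3 sequences on the array. Its accession matched no single RefSeq gene, and the files' own symbols were not used for accessions with several sequences. It was therefore left without a gene name and out of the histone and housekeeping counts.

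Tissue-restricted genes gave 104 low promoters of 1814 (5.73%) over 24 lists. Olfactory receptors, the odorant-sensing proteins of nasal neurons, made up 71 of these, out of 986 promoters (7.20%). Without them the tissue-restricted share was 33 of 828 (3.99%), against 3.36% of all named promoters without olfactory receptors, so 1 family gave most of these members. Defensins, antimicrobial peptides of epithelia, had 4 of 33 (12.1%, 95% Wilson interval 4.82 to 27.3, counting error only), serpins 3 of 47 and mouse major histocompatibility genes 2 of 30. Vomeronasal receptors, which sense pheromones and are also a large family of sensory neurons, had 4 of 148 (2.70%). Neuronal genes had 0 of 29, interferon genes 0 of 19 and kallikreins 0 of 21.

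**Figure D4:**
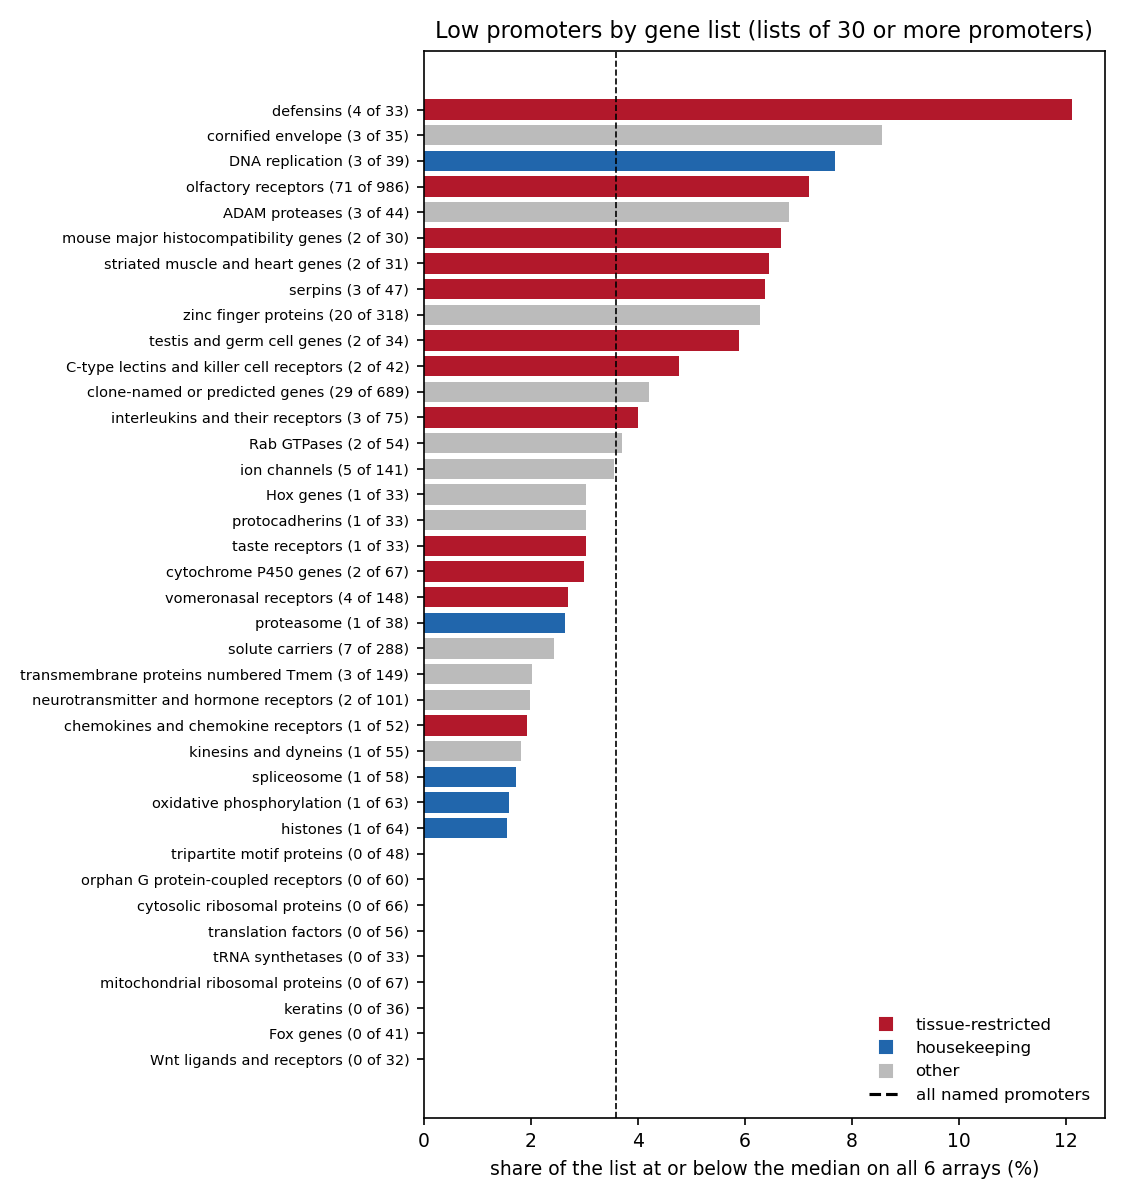
Share of each gene list's promoters that were at or below the median on all 6 arrays (horizontal axis, percent), for lists with at least 30 promoters, with the counts beside each name, tissue-restricted lists in red, housekeeping lists in blue and other lists in grey. The dashed line is the 3.59% of all named promoters. Olfactory receptors are to its right at 7.20%, and both ribosomal protein lists are at 0.

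The 71 olfactory members had means over 6 arrays from -0.90 to -0.10, with a median of -0.24. Olfr429, whose window is printed above, was the lowest, at -0.19, -0.06 and -2.37 on the 3 Plakoglobin arrays and -0.08, -0.15 and -2.58 on the 3 β-catenin arrays. It was low by the number 3 arrays, and so were Olfr686, with -0.34, -0.46 and -1.77 with Plakoglobin, against -0.22, -0.24 and -1.39 with β-catenin, and Olfr1451, with a mean of -0.68 over the 6 arrays. The whole olfactory list, members or not, had medians of -0.21, 0.12 and -0.21 on the 3 Plakoglobin arrays and -0.06, 0.10 and -0.18 on the 3 β-catenin arrays. It was therefore below the median promoter on the number 1 and number 3 arrays and above it on the number 2 arrays. Housekeeping promoters ran the other way on the number 2 arrays, with 0.08, -0.09 and 0.002 with Plakoglobin, against 0.02, -0.06 and 0.01 with β-catenin. Tissue-restricted promoters as a whole had -0.16, 0.09 and -0.13 with Plakoglobin, against -0.04, 0.05 and -0.10 with β-catenin, and 24 of them (1.32%) were above the median on all 6 arrays, against 38 housekeeping promoters (6.71%) and 8.23% of all named promoters.

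Among other tissue-restricted members, Defb21, Defb11 and Defb38 of the β-defensins had means over 6 arrays from -0.36 to -0.32. Il22, a cytokine that acts on keratinocytes, had -0.12, -0.27 and -1.32 with Plakoglobin, against -0.02, -0.72 and -1.30 with β-catenin. Its groups overlapped, and the number 3 arrays were lowest. Rag1, which cuts DNA for antigen receptor rearrangement in lymphocytes, had -0.14, -0.51 and -0.83 with Plakoglobin, against -0.13, -0.77 and -0.60 with β-catenin. Serpina5, which encodes protein C inhibitor, had -0.03, -0.24 and -3.63 with Plakoglobin, against -0.05, -0.45 and -1.26 with β-catenin, so the number 3 arrays again decided its mean. Other members were Il23r, Il12b, Cxcl13, Prss1, Afp, Tdo2, Actn2, Myh2 and the meiotic recombinase gene Dmc1, none of which had a listed peak.

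Epidermal lists gave 5 members of 107 promoters (4.67%). Besides Lce1c they were Lce1e, with -0.28, -0.33 and -0.42 on the 3 Plakoglobin arrays and -0.29, -0.17 and -0.32 on the 3 β-catenin arrays, and Sprr2h, a small proline-rich protein, with -0.01, -0.04 and -0.17 with Plakoglobin, against -0.14, -0.20 and -0.22 with β-catenin. Lce1e was low by a similar amount throughout, and Sprr2h came close to 0 on 2 Plakoglobin arrays. All 3 belong to the cornified envelope list, which had 3 of 35 (8.57%, 95% Wilson interval 2.95 to 22.4). The hair shaft genes Krtap3-3 and Krtap19-5 were the others, with means over 6 arrays of -0.79 and -0.23. None of the 36 keratin promoters and none of the 13 promoters of basal keratinocyte genes was a member.

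Junction lists had 5 members of 96 (5.21%), none of them a catenin (0 of 9). The desmosome gave Dsg2, a desmosomal cadherin, with -0.13, -0.99 and -0.10 with Plakoglobin, against -0.16, -0.83 and -0.02 with β-catenin. It also gave Pkp2, a plakophilin of the desmosomal plaque, with -0.10, -0.42 and -0.09 with Plakoglobin, against -0.01, -0.37 and -0.16 with β-catenin. At both genes the number 2 arrays were the lowest. Cdh20, Cldn16 and Pcdhb7 were the others, with means over 6 arrays from -0.26 to -0.19.

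Of 74 promoters on the Wnt lists 1 (1.35%) was a member. It was Sox9, a transcription factor of hair follicle stem cells counted here among Wnt targets, with -0.16, -0.42 and -0.02 with Plakoglobin, against -0.08, -0.45 and -0.01 with β-catenin. It was near 0 on the number 3 arrays. Wnt ligands and receptors had 0 of 32 and the intracellular pathway 0 of 23. The Hox list gave Hoxb3 of 33 promoters, and the Fox list 0 of 41. Of the markers of other skin cells, the melanocyte enzyme gene Tyr (1 of 7 promoters of its list) and the macrophage receptor gene Csf1r (1 of 5) were members, and 0 of 6 fibroblast promoters were.

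Zinc finger proteins, a large class of DNA-binding factors, had 20 of 318 promoters (6.29%), another large family above the 3.59% of all named promoters. Zfp512b had -0.14, -0.13 and -1.31 with Plakoglobin, against -0.07, -0.56 and -1.40 with β-catenin, while Zfp189 had -0.18, -1.49 and -0.10 with Plakoglobin, against -0.02, -1.21 and -0.16 with β-catenin. Different array numbers thus made them low. Ion channels had 5 of 141, among them Trpv3, a warmth-sensing channel of keratinocytes, with -0.24, -0.89 and -0.12 with Plakoglobin, against -0.20, -0.59 and -0.17 with β-catenin. Solute carriers had 7 of 288 (2.43%), neurotransmitter and hormone receptors 2 of 101, and orphan G protein-coupled receptors 0 of 60. Clone-named or predicted genes had 29 of 689 (4.21%).

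The named low promoters had less GC than the rest. RefSeq windows were found for 449 of 557 members named through RefSeq (80.6%) and for 12554 of 15731 promoters in all (79.8%). They cover 33.1% of all 1356 members, so composition over all members is void and the values hold only for the named ones. For GC and CpG content, a gene with several windows was given their mean. The median GC content was 51.3% (quartiles 44.7 and 59.0) for members and 58.3% (quartiles 50.3 and 65.3) for other promoters, and 65.7% for promoters above the median on all 6 arrays. Members had a median of 9 CpGs per window, against 16 for other promoters and 25 for those above the median on all arrays. Within 100 bases around the start the GC medians were 55.0% and 62.0%.

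Over 10 bins of about equal size, ordered by GC content, the share of low promoters was 6.16% in the lowest bin and 1.71% in the highest. It was 6.05%, 6.66% and 3.83% in the bins that followed the lowest. Promoters above the median on all 6 arrays showed the opposite order, with 0.474% in the lowest bin and 21.0% in the highest. On every array the ratio went up with GC, with Spearman correlations of 0.34, 0.08 and 0.21 on the 3 Plakoglobin arrays and 0.21, 0.26 and 0.19 on the 3 β-catenin arrays. These are over 12554 promoters that share arrays and are not independent. The part of base composition in the low ratios was not tested.

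**Figure D5:**
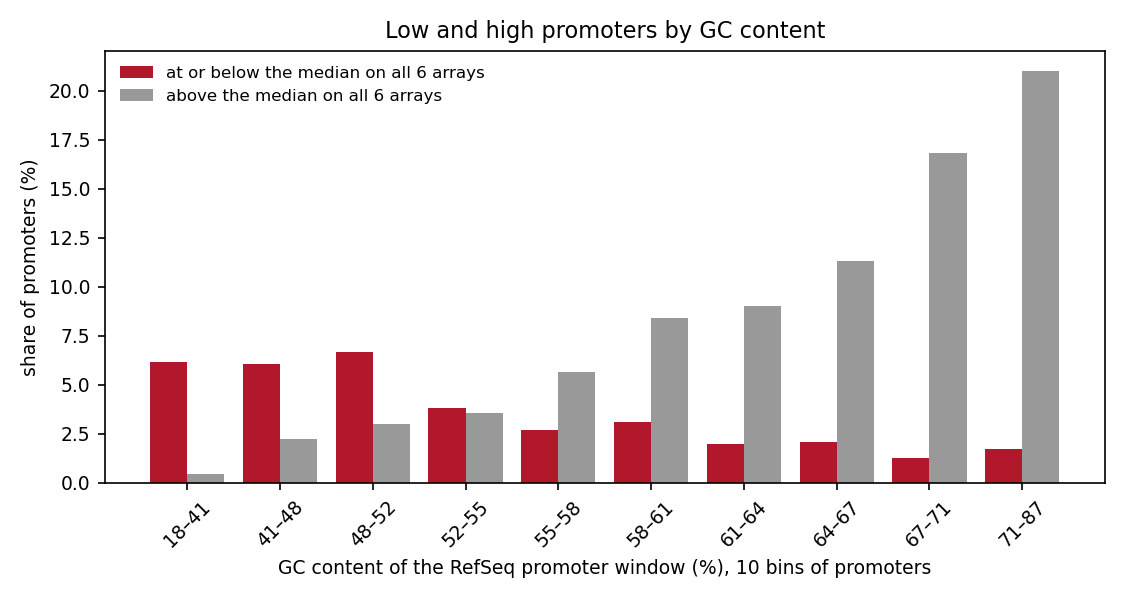
Share of promoters (vertical axis, percent) that were at or below the median on all 6 arrays (red, left) and above it on all 6 arrays (grey, right) in 10 bins of promoters ordered by the GC content of the RefSeq window (horizontal axis, percent). The red bars go from 6.16% to 1.71% and the grey bars from 0.474% to 21.0%.

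The 2 gene classes were also set side by side within 3 bins of GC content. In the lowest bin, 82 of 1296 tissue-restricted promoters (6.33%) and 1 of 109 housekeeping promoters (0.917%) were low, where 5.99% of all named promoters were. In the middle bin the counts were 3 of 158 (1.90%) and 3 of 200 (1.50%), against 3.09%, and in the highest bin 2 of 39 and 1 of 146, against 1.60%. Olfactory receptors had a median GC content of 35.0% with 822 of 832 windows in the lowest bin, where 59 (7.18%) were members. They made up 822 of the 1296 tissue-restricted promoters in that bin and 59 of the 82 low ones. The tissue-restricted share there is thus largely that of 1 family. Zinc finger promoters had a median of 55.6% and were members at 6.74%, 7.08% and 5.00% in the low, middle and high bins. Not all low members were CpG-poor, as the windows of Clp1 and Pdzrn3 show, and Mb21d2 had 50 CpGs.

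Short motifs were looked for on both strands of the same windows. A promoter counted as a match if any window of its gene held the motif. The TATA box core TATAAA was found for 19.6% of members and 13.7% of other promoters. It was in 13.6% of all single windows in the RefSeq table, a share counted by window and so not like the other 2. The letters CTTTGAT, a TCF/LEF core, were found for 7.13% of members and 3.57% of other promoters. They were found for 1.38% of promoters above the median on all 6 arrays, and in 3.73% of all single windows. The 2 motifs can overlap by at most 1 letter, and a match is a description of letters only. Both motifs are rich in A and T, and the shares were not adjusted for the lower GC content of the members. Of the printed windows, those of Asic5 and Olfr429 hold TATAAA.

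Listed peaks were rare at the low promoters. The authors' lists named the accession of 51 members (3.76%) on at least 1 array, against 34.6% of all promoters, and of 8 (0.590%) on at least 2 arrays, against 8.31%. Among single-sequence accessions the shares were 4.35% of members and 38.0% of all. The peaks come from the same arrays as the ratios, so the shares are a description. By array, members with a peak numbered 14, 23 and 8 on the 3 Plakoglobin arrays and 3, 1 and 15 on the 3 β-catenin arrays, and the lists themselves differ in length.

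The peaks listed for members lay far from the start site. For single-sequence accessions the median distance was 2316.5 bases over 48 pairs of accession and array, against 405 bases over 10538 pairs for all such promoters. Within 500 bases of the start were 6 of the 48 (12.5%), against 55.2%. The median peak score, the authors' own value, was 2.87 for members and 2.70 for all, so the listed peaks were of similar strength within the lists. Which part of the region around a start the promoter's mean covers was not given in the sources used here.

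H2ac10 had a listed peak on 4 arrays, more than any other member. Distances are in bases from the listed start site, negative before it. The peaks on Plakoglobin arrays 1, 2 and 3 were at -2795, -3417 and -2744 from its start (chromosome 13, 22914034 as deposited), and that on β-catenin array 3 was at -3277. They stood well upstream of the window printed above. Cpsf4 had peaks on Plakoglobin arrays 1 and 2 and β-catenin array 3, at -3050, -3030 and -2620 from its start (chromosome 5, 142641495 as deposited). Its promoter ratios on those 3 arrays were -0.79, -0.68 and -0.77. Vps50, a subunit of an endosomal tethering complex, had peaks at -3256, -3851 and -3171 on Plakoglobin arrays 2 and 3 and β-catenin array 3. The genome build of these positions was not given in the sources used here.

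Of the 6 named members with peaks on the most arrays, only Oog1, an oocyte gene, had a peak within 500 bases. That peak was at 45 from the start on Plakoglobin array 2. The ratio of Oog1 on that array was -0.14, and on β-catenin array 3, where peaks at -4707 and -4217 were listed, it was -1.77. Akr1b3, an aldose reductase, had peaks on Plakoglobin arrays 1 and 2 that were listed on different chromosomes (1 and 6), so its accession stands for more than 1 place. Dhrs7b, an enzyme of ether lipid synthesis, had a peak at -1124 on Plakoglobin array 2, where its ratio was -0.10.

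Members were spread over the autosomes, with 550 of 15143 named promoters (3.63%) and from 2.67% to 5.17% on single autosomes. The X chromosome had 7 of 571 (1.23%) and the Y chromosome 0 of 17. X-linked promoters had medians of -0.02, 0.16 and -0.01 on the 3 Plakoglobin arrays and 0, 0.24 and -0.02 on the 3 β-catenin arrays, so the number 2 arrays alone placed them clearly above the median. Their median GC content, 54.3%, was below the 58.0% of autosomal promoters. Of 549 member genes, 43 (7.83%) lay next to another member gene in the RefSeq order, against 7.16% of all 14851 genes. Without olfactory receptors the shares were 6.25% and 6.73%. Of 62 member genes with several promoter sequences on the array, 7 had all of them among the members.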

How the data were processed

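The authors deposited, per the file headers, the mean, median and standard deviation over probes of a log2 ratio of ChIP (Cy5) over input (Cy3) for each promoter sequence, 1 table per array. The 6 tables equal the table of the whole series (largest difference 0). Normalization before that was not given in the sources used here. Peak lists, also deposited, are from the NimbleGen algorithm, per the file headers, 1 per array (330 to 2684 peaks), with a score of unstated scale, a false discovery rate (a q-value, up to 0.199) and a distance to each start site. Array number, not read depth, limits precision.

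Each array was centred on its median. Members have a centred mean ratio of 0 or less on all 6 arrays. A group-means model of all 26200 promoters was fitted in R 4.3.3 using limma 3.58.1 (lmFit and eBayes, prior trend on, two-sided, Benjamini-Hochberg threshold 0.05). The code was checked on simulated data with independent noise of equal spread at all promoters and no effect of array number. That check does not show how large a difference these arrays could detect. The trend gives promoters with extreme means a large modelled spread. Same-numbered arrays deviated together (correlations of deviations from the group means of 0.20, 0.23 and 0.22). The main fit had no block and did not use this pairing, since the labels do not say what a number shares. Spread shared by same-numbered arrays therefore counts as error in it. All SEs and adjusted p-values of single promoters come from that fit. The fit with number as a block is an alternative, given where it moves a count. Names came from the files' accessions and symbols through RefSeq (GRCm38.p6, names and windows only): 433 members by accession, 61 by symbol, 63 by synonym and 33 by the files' own name, while 766 stayed unnamed.

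The members, the 58 gene lists and the tests were chosen with earlier results of these data known, and 9 lists were added later. Named genes are the 10 lowest by highest value, the 10 lowest by mean, the 3 members per direction with the lowest p for the difference, the 6 named members with peaks on the most arrays, the 3 lowest of each list with all junction, Wnt and epidermal members, and those next to the threshold, where ties were many. Sly and the other repeated accessions were chosen after their values were seen. The rest was computed in Python 3.11.15 (numpy 2.4.6, pandas 2.3.3, scipy 1.17.1) and drawn with matplotlib 3.10.9.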

Additional observations from a re-analysis of the deposited data

How the results depend on the processing

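The count of 1356 low promoters depended on where 0 was set. It was 2319 with arrays centred on their mean (all 1356 among them), 37 without centring, 362 with a threshold of -0.1 and 827 with single-sequence accessions only. It was 1391 with the median over probes, which kept 824 of the 1356 (60.8%), and 929 without the 4 most repeated accessions, an alternative chosen after seeing the data. Quantile normalization gave 1356, since it keeps each array's order around the median. Leaving out 1 array, which asks for 5 arrays in place of 6, gave 1832 to 2193, the most without Plakoglobin array 2. The share of members with a listed peak was 3.76% (95% Wilson interval 2.87 to 4.91, counting error only), 0.590% for peaks on at least 2 arrays and 0.664% with the 330 strongest peaks from every array, where all promoters had 34.6%, 8.31% and 9.35%. Without 1 array it was 2.58% to 3.69%, lowest without Plakoglobin array 2. limma called 0 members for the difference between antibodies under all 11 alternatives, replicate block included, with the lowest adjusted p of a member from 0.89 to 1, and 0 over the median promoter. Without centring 0 of 566 housekeeping, 3 of 1814 tissue-restricted and 1 of 986 olfactory promoters were members. The share of promoters also low on an array left out averaged 68.6%, and 60.2% with both arrays of its number left out, an alternative chosen after seeing the data. With 3 arrays per antibody, small differences could not be shown.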
